A study of Mus musculus with 16 samples.

Results

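The genes described here encode the carriers of nuclear transport, the importins and exportins, together with the proteins of the Ran cycle that load and unload them and the mRNA export receptor. They were chosen by symbol, and all 30 were found in both deposited count tables, among 26371 gene symbols that the tables share. The list holds 5 importin alpha genes (Kpna1, Kpna2, Kpna3, Kpna4 and Kpna6), 11 import receptors (Kpnb1, Tnpo1, Tnpo2, Tnpo3, Ipo4, Ipo5, Ipo7, Ipo8, Ipo9, Ipo11 and Ipo13) and 7 export receptors (Xpo1, Xpo4, Xpo5, Xpo6, Xpo7, Xpot and Cse1l). It also holds 5 genes of the Ran cycle (Ran, Rangap1, Ranbp1, Rcc1 and Nutf2) and the 2 subunits of the mRNA export receptor, Nxf1 and Nxt1.

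The libraries were made from poly(A) RNA of primary cortical neurons of C57/BL6 mouse embryos of day 17.5 to 19.5, with the cortices of 1 litter pooled for each replicate. The study asked how far Nup153, a protein of the basket on the nuclear side of the pore, sets gene expression in neurons. Every culture, controls included, received an adeno-associated virus (AAV) carrying a short hairpin RNA from day 8 to day 13 in vitro. At basal state there were 4 libraries with the control hairpin shControl, 2 usable libraries with shNup153-1 and 2 with shNup153-2, and in silenced cultures 3 with each of shControl and shNup153-2. To silence them, tetrodotoxin (1 to 2 µM, from day 12 for 24 hours), a blocker of sodium channels, was given together with D-AP5 (100 µM, for 6 hours), a blocker of NMDA receptors. The labels say that only samples with enough Nup153 knockdown went on to sequencing, and name neither the promoter of the hairpin nor the cells that the virus entered.

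In nuclear import, importin alpha recognises a nuclear localisation signal on the cargo and joins importin beta (Kpnb1), which carries the complex through the pore. Other receptors of the same family bind their cargo directly, and export receptors leave the nucleus bound to cargo and to Ran carrying GTP. Rcc1 loads Ran with GTP at chromatin, Rangap1 and Ranbp1 help it to hydrolyse the GTP in the cytoplasm, and Nutf2 (NTF2) brings Ran back to the nucleus. Importin receptors and Ran also work in axons and at synapses, where importins carry signals to the nucleus of a neuron. Nup153 is a docking site of the pore basket for several of these receptors.

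The libraries held 26863535 to 56299817 counts each. All 10 neuronal markers were present in every library, with a summed level between 4824 and 9216 CPM (counts per 1000000, after scaling for library composition). Nup153 itself lay between 52.9 and 94.5 CPM in basal shControl, between 17.1 and 28.0 CPM with shNup153-1 and between 11.6 and 13.5 CPM with shNup153-2, and between 9.38 and 13.4 CPM with shNup153-2 in silenced cultures, against 52.1 to 64.2 CPM with shControl. Its log2 fold change was -1.67 (SE 0.32, edgeR adjusted p = 0.0122), -2.52 (SE 0.29, adjusted p = 0.00502) and -2.40 (SE 0.17, adjusted p = 0.00534). Since enough Nup153 knockdown was a condition of sequencing, these p-values are no independent test of it and serve as a check of the group labels. The 4 basal shControl libraries differed among themselves: replicates 1 and 3 lay together on 1 side of replicates 2 and 4 in 20 of the 30 transport genes (66.7%) and in 66.2% of 14903 genes.

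In basal shControl cultures the 30 genes spanned a 23.6-fold range of level per length, given as CPM per kb of exon. Ran was the most abundant at 48.1 ± 13.0 CPM per kb (SD, n = 4), followed by its activating protein Rangap1 at 43.4 ± 10.4 and by the import receptors Ipo5 at 43.1 ± 7.13 and Kpnb1 at 40.9 ± 4.68. Kpna3 was the most abundant importin alpha per length, at 40.5 ± 5.41 CPM per kb. The length used is that of all annotated exons of a gene merged, 8.486 kb for Kpna1 and 4.298 kb for Kpna3. Before division by length Kpna1 had the higher mean, 215.5 against 173.9 CPM, so the order of these genes depends on that length. Xpot, the tRNA exporter, was the most abundant export receptor at 27.1 ± 8.51 CPM per kb, ahead of the general exporter Xpo1 at 20.1 ± 5.55. The least abundant were Nutf2 at 2.75 ± 0.23, Xpo4 at 2.33 ± 1.05 and Kpna2 at 2.04 ± 0.57 CPM per kb. In 26 of the 29 pairs of neighbours in this order the ranges of the 4 libraries overlapped, so the order of neighbours was mostly not resolved. The breaks lay below Ipo4, below Xpo7 and below Ipo8.

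**Figure D1:**
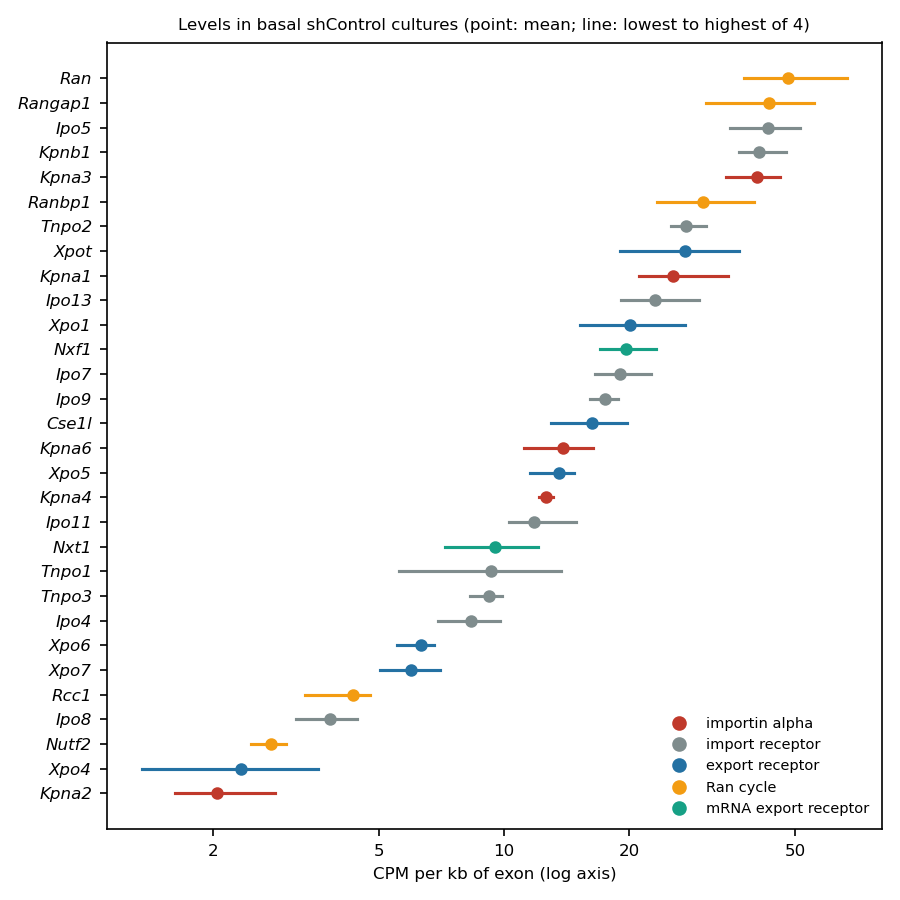
Level of each gene in basal shControl cultures in CPM per kb of exon on a log axis, with the mean of 4 libraries as a point and a line from the lowest to the highest. The range runs from 2.04 for Kpna2 to 48.1 for Ran, and most neighbouring lines overlap.

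The spread between control libraries differed widely between genes and sets what a comparison could resolve. The coefficient of variation over the basal shControl libraries was 3.29% for Kpna4 and 6.55% for Ipo9, but 46.3% for Tnpo1 (transportin 1, the receptor of proteins with a PY signal) and 45.0% for Xpo4. Tnpo1 stood at 154, 62.7, 137 and 63.0 CPM in the 4 control libraries and Xpo4 at 38.2, 14.4, 30.4 and 17.0 CPM. Both were high in replicates 1 and 3 and low in replicates 2 and 4. The summed level of 10 astrocyte markers in the same libraries was 2559, 458, 1719 and 1201 CPM, and its part in this spread was not tested.

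Some of the transport genes share sequence or exons with others, which limits what their counts stand for. The processed copy Nutf2-ps1 held 6.20 to 8.71 CPM in basal shControl, more than Nutf2 itself (5.02 to 6.09 CPM), so reads of Nutf2 may be divided between them. In the mouse gene models (GENCODE M21, GRCm38) 55.3% of the exon length of Ipo4 overlaps Gm49378 on the same strand and 16.9% of that of Ranbp1 overlaps Gm49776. On the opposite strand, exons of A230103J11Rik cover 10.6% of Tnpo2 and exons of Gm11583 cover 7.1% of Kpnb1. Whether the counting used strand is not stated in the labels.

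With shNup153-1 at basal state, 3 transport genes fell and none rose. They were Kpna1, which encodes importin alpha 5, Kpna4, which encodes importin alpha 3, and Xpo5, the exporter of precursor microRNAs. The change of Kpna1 was the largest by far, a log2 fold change of -2.01, against -0.88 for Xpo5 and -0.58 for Kpna4. The other 27 genes did not pass the threshold of an adjusted p of 0.05. The 3 genes called are 10% of the list, against a background of 13.6% of 14529 genes called in either direction, 6.52% as higher and 7.05% as lower.

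Kpna1 (chr16:35978750-36037131, plus strand) stood at 293, 204, 179 and 186 CPM in basal shControl and at 51.3 and 57.8 CPM with shNup153-1. Both knockdown libraries lay far below every control library, and the log2 fold change was -2.01 (SE 0.25, edgeR adjusted p = 0.00307). The change remained past the threshold when any 1 library of these 2 groups was left out.

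Xpo5 (chr17:46202782-46243598, plus strand) stood at 101, 79.3, 101 and 90.8 CPM in shControl and at 49.7 and 52.9 CPM with shNup153-1. The groups did not overlap, and the log2 fold change was -0.88 (SE 0.17, edgeR adjusted p = 0.0137). Without shNup153-1 replicate 1 the adjusted p was 0.109, and without replicate 2 it was 0.0581.

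Kpna4 (chr3:69067149-69127113, minus strand) stood at 117, 114, 110.3 and 109 CPM in shControl and at 73.9 and 79.2 CPM with shNup153-1. The control libraries were closer to each other than for any other transport gene, and both knockdown libraries lay below them. The log2 fold change was -0.58 (SE 0.15, edgeR adjusted p = 0.0364). This call was lost without any 1 of the 6 libraries, with adjusted p values from 0.0656 to 0.192, and in a fit of only the 2 groups compared (adjusted p = 0.0839).

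The levels of the 5 importin alpha genes summed to 94.3 ± 11.6 CPM per kb (SD, n = 4) in shControl and to 63.2 ± 3.70 (n = 2) with shNup153-1, and no test was made of the sum. Kpna1 made up 26.7% of that sum in shControl and 10.2% with shNup153-1. Kpna6 (importin alpha 7), with 75.2 to 110 CPM in shControl and 92.9 and 132 CPM with shNup153-1, did not pass the threshold (log2 fold change 0.25, SE 0.22, edgeR adjusted p = 0.507). Its share of the sum was 14.7% in shControl and 26.2% with shNup153-1. Per kb of exon, Kpna3 held the largest share in each group, and all these shares depend on the exon lengths used.

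**Figure D2:**
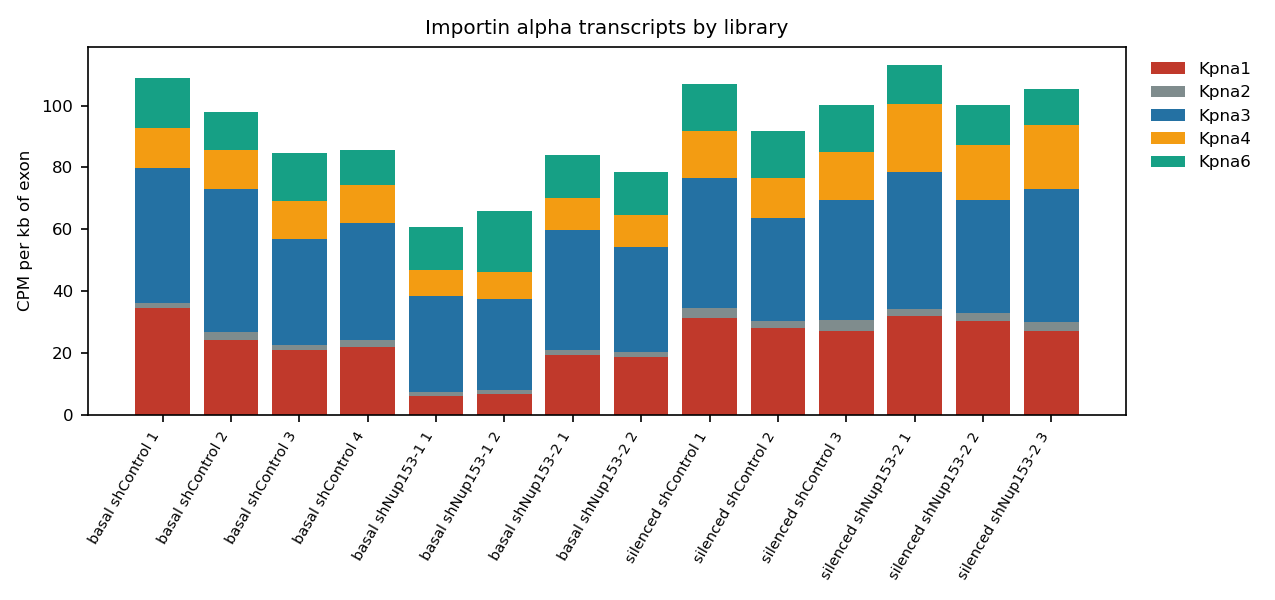
Stacked levels of the 5 importin alpha genes in CPM per kb of exon in each of the 14 libraries. The Kpna1 segment is smallest in the 2 shNup153-1 libraries, where it makes up 10.2% of the sum on average, against 26.7% in basal shControl.

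Kpna1 is shown with its sequence because its 3′ untranslated region (UTR) holds 3 copies of the 7 bases TGGCTTT. That sequence was picked in earlier work on these same libraries for its link with lower levels under shNup153-1, so its presence in Kpna1 is no independent support for anything. It was searched on the sense strand of the longest annotated 3′ UTR of each gene, and 241 of 21020 genes (1.15%) hold 3 or more copies. That share covers UTRs of every length. It was not matched to the 3223 bases of Kpna1, the 5637 of Tnpo1 or the 6940 of Kpna4, and a longer UTR has more room for copies. The windows below are read 5′ to 3′ on the gene's strand in GRCm38 (mm10), with the 7 bases in capitals. They lie at chr16:36034393-36034419, chr16:36034634-36034660 and chr16:36036594-36036620 on the plus strand for Kpna1, and at chr3:69073283-69073309 on the minus strand for Kpna4.
Kpna1 copy 1: gagtacctggTGGCTTTttctagccac
Kpna1 copy 2: ttagtttgtaTGGCTTTtgcttctctt
Kpna1 copy 3: cagggcaaagTGGCTTTgttgttttcc
Kpna4: ttacctagtaTGGCTTTtttagttgct

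Tnpo1 also holds 3 copies and is shown for comparison with Kpna1, since its change with shNup153-1 did not pass the threshold (log2 fold change -0.58, SE 0.41, edgeR adjusted p = 0.385). They lie on the minus strand at chr13:98844205-98844231, chr13:98842511-98842537 and chr13:98842081-98842107.
Tnpo1 copy 1: agcagtaaggTGGCTTTttatcaaagg
Tnpo1 copy 2: tcttctgtttTGGCTTTgcaaatttca
Tnpo1 copy 3: aagcagtattTGGCTTTatagtaaatt

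Across the list, 6 of 30 genes (20%) hold at least 1 copy, against 19.7% of the 21020 genes searched. Beside Kpna1, Tnpo1 and Kpna4, these are Xpo4 with 2 copies and Kpna6 and Xpo1 with 1 each. Of the 3 genes that fell with shNup153-1, Xpo5 holds none, and of the 6 that hold it, Kpna6 has a log2 fold change above 0.

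Of all 30 genes, 19 had a log2 fold change below 0 with shNup153-1 and 11 above 0. The median log2 fold change of the 30 genes, the 3 called ones included, was -0.38, against -0.02 over all genes tested. Import receptors had a median of -0.38 and export receptors of -0.51, whereas the 5 Ran cycle genes had a median of 0.25. Within the Ran cycle the values ran from -0.79 for Rcc1 (SE 0.23, edgeR adjusted p = 0.0516) to 0.53 for Nutf2 (SE 0.25, adjusted p = 0.206). The copy Nutf2-ps1, outside the list, rose by 0.92 and passed (SE 0.21, adjusted p = 0.0253). Ipo7, which imports ribosomal proteins and histones among others, had a log2 fold change of -0.67 (SE 0.20, adjusted p = 0.0563). At an unadjusted p under 0.05 there were 12 of the 30 genes (40.0%), against 29.5% of all genes. Both knockdown libraries lay below all 4 controls in 14 of the 30 genes, against 17.8% of 14903 genes, and above them in 1 gene, Nutf2, against 18.1%.

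Markers of other cells and activity-regulated genes moved with this hairpin. The summed level of 11 oligodendrocyte lineage markers lay between 114 and 285 CPM in basal shControl and between 800.4 and 815 CPM with shNup153-1, and 8 of the 11 rose. That of 13 activity-regulated genes lay between 84.9 and 159 CPM in shControl and between 310 and 632 CPM with shNup153-1, and 10 of the 13 rose. None of the 11 oligodendrocyte lineage markers was at 0 in either shNup153-1 library, and the 10 neuronal markers showed no call in either direction. Of the other lists, 1 of 10 interneuron and 1 of 10 astrocyte markers rose and 1 of 9 vascular and fibroblast markers fell. Microglia and proliferation markers showed no call. The summed interneuron markers lay between 1575 and 2335 CPM, against 810.1 to 1552 CPM in shControl, while the astrocyte sums overlapped. Whether these shifts take part in the lower Kpna1, Kpna4 and Xpo5 was not tested. In libraries of a whole culture, fewer cells of a type and less RNA per cell cannot be told apart.

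With shNup153-2 at basal state, 1 transport gene fell and none rose. It was Xpot, exportin-t, which carries mature transfer RNAs out of the nucleus, with a log2 fold change of -1.40. The single call is 3.33% of the list, against a background of 9.55% of 19682 genes called in either direction and 3.64% as lower. The median over the list was -0.14, against -0.03 over all genes tested.

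Xpot (chr10:121587380-121626332, minus strand) stood at 191, 128, 222 and 114 CPM in shControl and at 54.7 and 72.2 CPM with shNup153-2. Both knockdown libraries lay below every control library, although the controls themselves spread from 114 to 222 CPM, with replicates 1 and 3 high. The log2 fold change of -1.40 had an SE of 0.31 (edgeR adjusted p = 0.0326). Without shNup153-2 replicate 1 the adjusted p was 0.296 (log2 fold change -1.21), and without replicate 2 it was 0.196 (-1.60). The same gene stood at 98.5 and 105 CPM with shNup153-1, where its log2 fold change of -0.71 (SE 0.30) did not pass (adjusted p = 0.150).

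None of the importin alpha genes or import receptors passed the threshold with shNup153-2. Kpna1 stood at 165 and 157 CPM, below each control library, with a log2 fold change of -0.45 (SE 0.24, edgeR adjusted p = 0.252). Kpna4 stood at 93.5 and 91.4 CPM, also below each control library (log2 fold change -0.31, SE 0.16, adjusted p = 0.234). Ipo7 was at 338 and 280 CPM, above the 184 to 252 CPM of the controls (0.51, SE 0.20, adjusted p = 0.139). The 5 importin alpha genes summed to 81.3 ± 3.87 CPM per kb (SD, n = 2), of which Kpna1 made up 23.3%.

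All 5 Ran cycle genes had log2 fold changes below 0 with shNup153-2, from -0.0054 for Rangap1, in effect no change, to -0.56 for Ran, and none passed. Ran itself stood at 86.1 and 90.4 CPM, against 99.9 to 176 CPM in shControl (SE 0.27, edgeR adjusted p = 0.203). For Nutf2 the value was -0.29 (SE 0.24), but its copy Nutf2-ps1 went the other way (0.55, SE 0.23, adjusted p = 0.155). Reads may be divided between these 2, so the direction of Nutf2 is uncertain. Among export receptors Xpo6, which exports actin with profilin, had -0.52 (SE 0.18, adjusted p = 0.0999) and Xpo4 had 0.69 (SE 0.37, adjusted p = 0.250). At an unadjusted p under 0.05 there were 4 of 30 genes, 13.3%, against 28.9% of all genes. Both libraries lay below all controls in 9 genes, against 21.5% of all genes, and above them in 1 gene (Ipo7), against 24.3%. Summed activity-regulated genes lay between 411 and 643 CPM in these 2 libraries, also above the 84.9 to 159 CPM of shControl, with 9 of 13 called as higher, and their part in the level of Xpot was not tested.

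**Figure D3:**
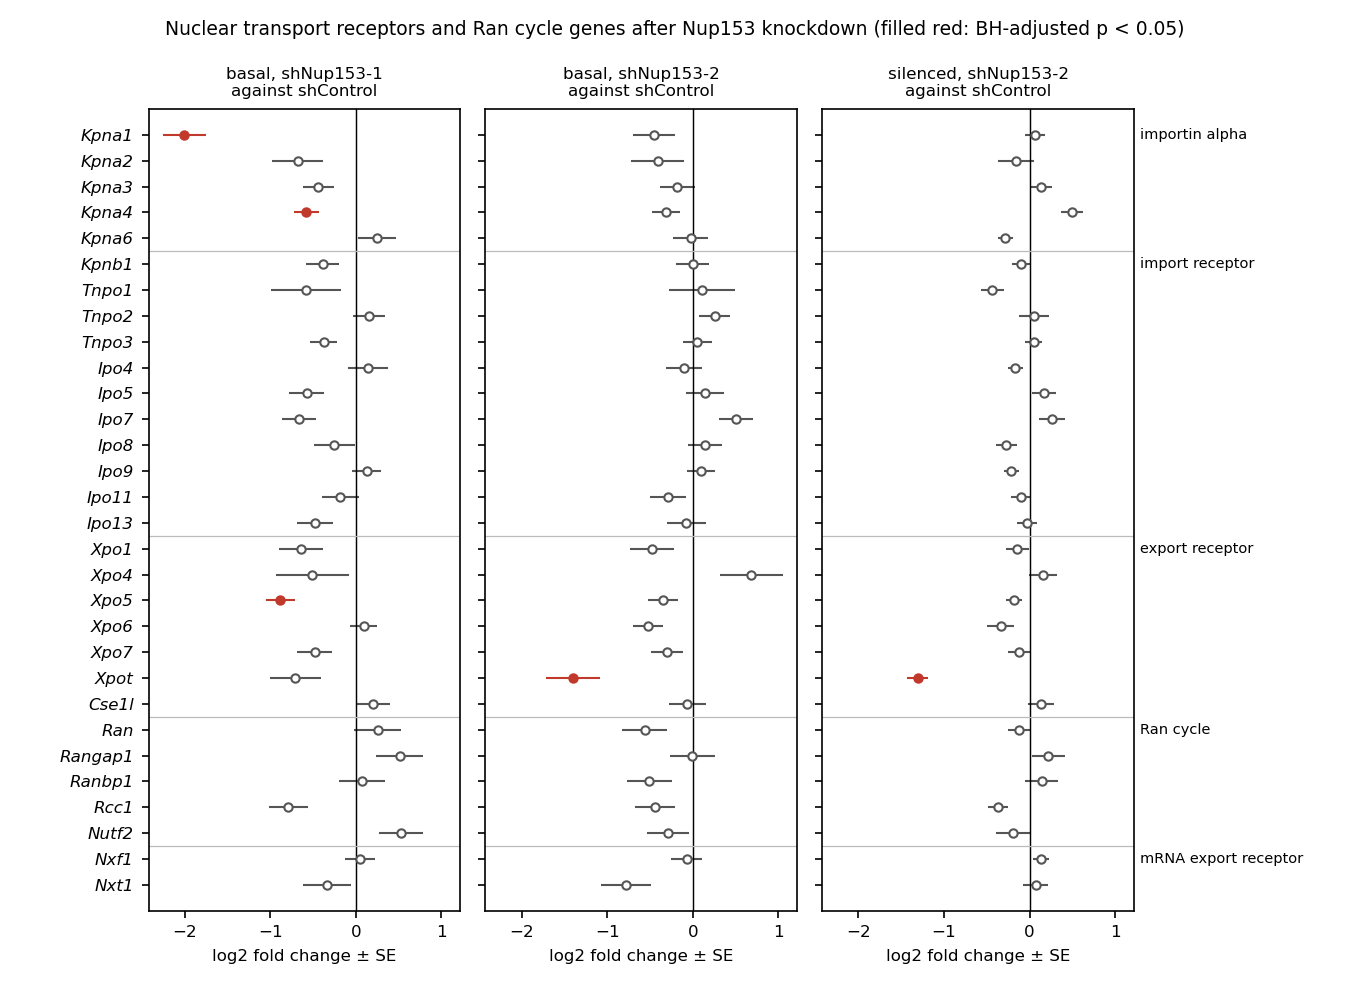
Log2 fold change ± SE of each of the 30 genes for shNup153-1 and shNup153-2 against shControl at basal state and for shNup153-2 in silenced cultures, with filled red points past an adjusted p of 0.05. Kpna1, Kpna4 and Xpo5 are filled for shNup153-1, and Xpot at -1.40 and -1.31 with shNup153-2 at basal state and in silenced cultures. The fits shown take no account of replicate number.

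The hairpins were then compared with each other, which does not use the control libraries as a reference. Those libraries still entered the filter, the scaling and the estimate of spread of this fit. Kpna1 and Ipo7 were higher with shNup153-2 than with shNup153-1, and no transport gene was lower. Kpna1 differed by 1.55 on the log2 scale (SE 0.27, edgeR adjusted p = 0.0204), with 165 and 157 CPM against 51.3 and 57.8 CPM. Ipo7 (chr7:110018274-110056609, plus strand) differed by 1.18 (SE 0.22, adjusted p = 0.0292), with 338 and 280 CPM against 128 and 144 CPM. The controls lay between the 2 hairpins for Ipo7, at 252, 199, 214 and 184 CPM, while for Kpna1 they lay above both.

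These 2 genes are 6.67% of the list, against 4.48% of 14529 genes called between the hairpins, 2.81% as higher and 1.67% as lower with shNup153-2. Both calls were lost when any 1 of the 4 knockdown libraries was left out, with adjusted p values from 0.0522 to 0.181 for Kpna1 and from 0.0593 to 0.242 for Ipo7. For Xpot the difference between hairpins was -0.69 (SE 0.34, adjusted p = 0.229), so a difference in its response was not resolved. For Xpo5 it was 0.53 (SE 0.19, adjusted p = 0.139) and for Kpna4 0.27 (SE 0.17, adjusted p = 0.339). The range of shNup153-2 lay above that of shNup153-1 in 15 genes, against 32.8% of all genes, and below it in 7, against 29.8%. The Ran cycle genes Ran (-0.81, SE 0.32, adjusted p = 0.157), Ranbp1 and Nutf2 were among the 7 that lay below. Oligodendrocyte lineage markers also differed between the hairpins, at 254 to 382 CPM with shNup153-2 against 800.4 to 815 CPM with shNup153-1, with 5 of 11 called as lower, and their part in the difference was not tested.

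In silenced cultures, in the fit that takes no account of replicate number, Xpot was again the only transport gene called as lower with shNup153-2. Kpna1, at 266, 237 and 230 CPM in shControl and 270, 257 and 229 CPM with shNup153-2, did not pass (log2 fold change 0.07, SE 0.11, edgeR adjusted p = 0.812). Xpot stood at 112, 130 and 110.5 CPM in silenced shControl and at 44.1, 53.2 and 43.1 CPM with shNup153-2. Every knockdown library lay below every control library, and the log2 fold change was -1.31 (SE 0.12, edgeR adjusted p = 0.00757). These libraries are separate from those of the basal comparison. Without silenced shControl replicate 1 the adjusted p was 0.0639 and without shNup153-2 replicate 1 it was 0.0806, with log2 fold changes of -1.35 and -1.28.

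The single call is 3.33% of the list, against 3.45% of 18965 genes, 1.61% as higher and 1.83% as lower. Libraries with the same replicate number deviated together in the silenced cultures, and with the number as a block 7 transport genes passed, which is 23.3% of the list against 21.9% of all genes, 11.7% as higher and 10.3% as lower. In that fit Kpna4 (0.50, SE 0.07, edgeR adjusted p = 0.0033) and Ipo7 (0.25, SE 0.07, adjusted p = 0.0359) rose. Xpot (-1.31, SE 0.07, adjusted p = 0.00032), Tnpo1 (-0.44, SE 0.07, adjusted p = 0.00666), Kpna6 (-0.29, SE 0.07, adjusted p = 0.0288), Rcc1 (-0.37, SE 0.10, adjusted p = 0.0318) and Xpo6 (-0.32, SE 0.09, adjusted p = 0.0372) fell.

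Kpna4 stood at 137, 115 and 140 CPM in silenced shControl and at 198, 160 and 187 CPM with shNup153-2, and the ranges did not overlap. Without the block its log2 fold change was 0.50 (SE 0.13, edgeR adjusted p = 0.0849). Kpna4 made up 14.6% of the importin alpha sum in silenced shControl and 19.1% with shNup153-2, and Kpna6 15.3% and 11.6%. The sum itself was 99.7 ± 7.71 CPM per kb (SD, n = 3) in shControl and 106 ± 6.61 (n = 3) with shNup153-2.

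Without the block the median log2 fold change of the list was -0.10, against 0.01 over all genes. All 3 knockdown libraries lay below all 3 controls in 7 genes (Kpna6, Tnpo1, Ipo4, Ipo9, Xpo5, Xpot and Rcc1), against 13.5% of all genes, and above them in 1, Kpna4, against 12.8%. In these groups the summed activity-regulated genes lay between 67.7 and 103 CPM with shControl and between 84.7 and 94.0 CPM with shNup153-2, and none of the 13 was called. Oligodendrocyte lineage markers overlapped too, with 246 to 433 CPM and 149 to 593 CPM.

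**Figure D4:**
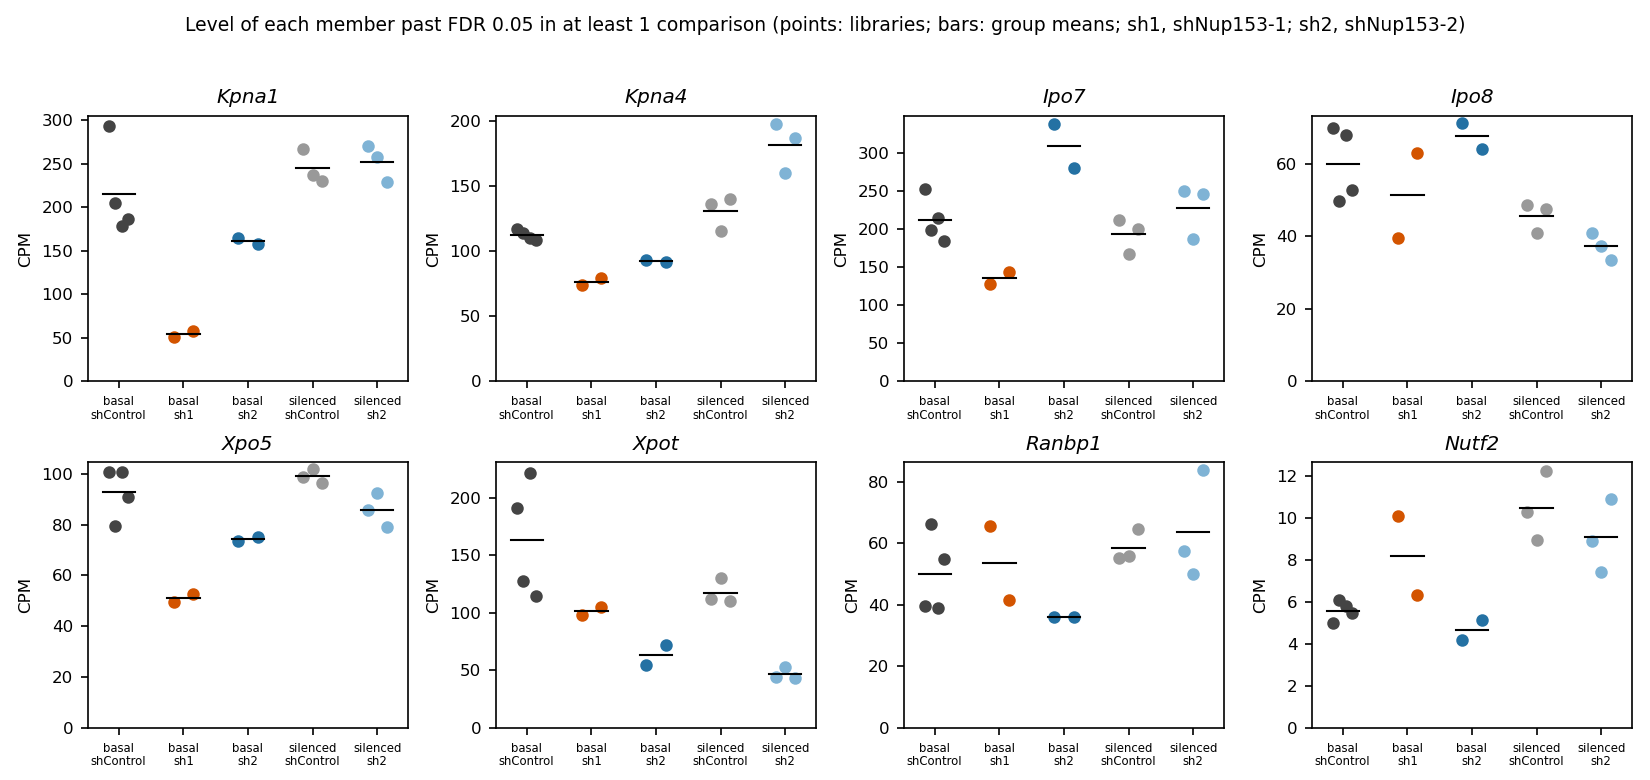
CPM in each library, with the group mean as a bar, for the 8 genes that passed an adjusted p of 0.05 in at least 1 comparison of the unblocked fits. Kpna1 is lowest in the 2 shNup153-1 libraries and Xpot in the shNup153-2 libraries of both states.

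Silenced and basal cultures were compared within each hairpin. They stand in separate count tables, so silencing and anything else that differs between the tables cannot be told apart. The control cultures also enter the knockdown comparisons above, so these results are not independent of them. With shControl, 1 transport gene rose with silencing, Nutf2, the carrier that returns Ran to the nucleus. It is 3.33% of the list, against 12.4% of 20926 genes, 6.09% as higher and 6.27% as lower.

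Nutf2 (chr8:105860580-105879330, plus strand) stood at 5.02, 6.09, 5.81 and 5.47 CPM in basal shControl and at 10.3, 8.99 and 12.3 CPM in silenced shControl. All silenced libraries lay above all basal ones, and the log2 fold change was 0.86 (SE 0.18, edgeR adjusted p = 0.0118). Without silenced shControl replicate 3 it was 0.75 (adjusted p = 0.0603). Its copies moved in the same direction, Nutf2-ps1 by 0.63 (SE 0.18, adjusted p = 0.0422) and Nutf2-ps2 by 0.94 (SE 0.24, adjusted p = 0.0277), and reads of the 3 genes may be divided among them. The median of the list was 0.04, against -0.03 over all genes. The silenced range lay above the basal one in 4 genes (Nutf2, Tnpo3, Ipo4 and Ipo9), against 12.8% of all genes, and below it in Ipo8, against 10.7%.

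With shNup153-2, 3 transport genes rose with silencing and 1 fell. Kpna4, Nutf2 and Ranbp1, which assists GTP hydrolysis on Ran, rose, and the import receptor Ipo8, which also binds Argonaute proteins, fell. The 4 genes are 13.3% of the list, against 21.7% of all genes called, 9.39% as higher and 12.3% as lower. The median of the list was 0.14, against 0.01 over all genes.

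Kpna4 stood at 93.5 and 91.4 CPM in basal and at 198, 160 and 187 CPM in silenced shNup153-2 cultures, a log2 fold change of 0.94 (SE 0.15, edgeR adjusted p = 0.00273). The groups were far apart, and the call was kept in all 10 alternatives computed for it. The replicate block among them compares the states at the fitted level of replicate 1 and is no check of this difference. Ipo8 (chr6:148770683-148831467, minus strand) stood at 71.4 and 64.0 CPM in basal and at 40.9, 37.3 and 33.6 CPM in silenced cultures, a log2 fold change of -0.89 (SE 0.18, adjusted p = 0.00778). Without basal shNup153-2 replicate 1 its adjusted p was 0.0769. In shControl its change was -0.45 (SE 0.15, adjusted p = 0.079).

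Nutf2 stood at 4.22 and 5.16 CPM in basal and at 8.93, 7.44 and 10.9 CPM in silenced shNup153-2 cultures, a log2 fold change of 0.92 (SE 0.23, edgeR adjusted p = 0.0172). Its adjusted p was 0.148, 0.0726 and 0.0636 without basal replicate 1, basal replicate 2 and silenced replicate 3. Ranbp1 (chr16:18239784-18248732, minus strand) stood at 36.1 and 35.9 CPM in basal and at 57.4, 49.99 and 83.9 CPM in silenced cultures, a change of 0.79 (SE 0.26, adjusted p = 0.0473). The highest silenced library set its size, since without silenced replicate 3 the change was 0.54 (adjusted p = 0.165). Its call was also lost without basal replicate 1, basal replicate 2 or silenced replicate 1 (adjusted p = 0.192, 0.181 and 0.0819).

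The silenced range lay above the basal one in 15 genes with shNup153-2, against 33.9% of all genes, and below it in 8, against 33.3%. At an unadjusted p under 0.05 there were 11 of 30 genes, 36.7%, against 40.2% of all genes. Tnpo1 (-0.92, SE 0.35, edgeR adjusted p = 0.0728) and Xpo4 (-0.92, SE 0.35, adjusted p = 0.0723) had the most negative values and did not pass. Proliferation markers moved with state as well: their sum lay between 41.3 and 61.8 CPM in basal and between 62.8 and 177 CPM in silenced shControl, with 8 of 14 rising, and between 38.2 and 40.1 CPM and between 114 and 153 CPM with shNup153-2, with 11 of 14 rising. With shNup153-2 all 13 activity-regulated genes fell with silencing, and with shControl 1 of 13 did. Of 10 interneuron markers, 5 fell with silencing in shControl (810.1 to 1552 CPM in sum at basal state, 546 to 574 silenced) and 3 in shNup153-2 (1332 to 1395 CPM, then 570.2 to 690 CPM). Of 10 astrocyte markers, 1 and 2 fell, with sums of 458 to 2559 CPM and then 223 to 1182 CPM in shControl and of 2310 to 2668 CPM and then 244 to 1354 CPM in shNup153-2. Of 12 oligodendrocyte lineage markers, 3 rose in shControl, and 6 rose and 1 fell in shNup153-2. The sums of 11 of them were 114 to 285 CPM and then 246 to 433 CPM in shControl. In shNup153-2 they were 254 to 382 CPM and then 149 to 593 CPM. Whether any of these shifts takes part in the changes of Kpna4, Nutf2, Ranbp1 or Ipo8 was not tested.

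**Figure D5:**
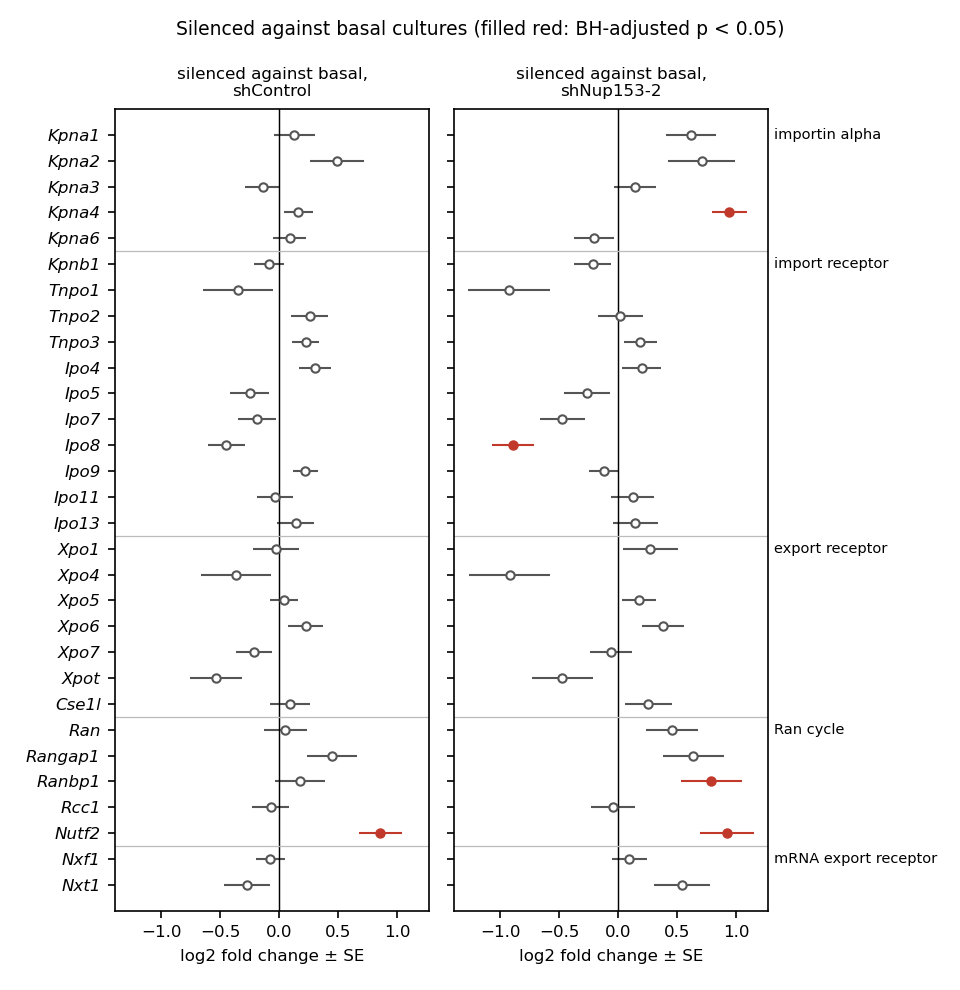
Log2 fold change ± SE of each of the 30 genes between silenced and basal cultures, for shControl on the left and shNup153-2 on the right, with filled red points past an adjusted p of 0.05. Nutf2 is filled in both panels, and Kpna4, Ranbp1 and Ipo8 on the right.

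A gene past the threshold with 1 hairpin and not with the other is not thereby shown to differ, and the difference was tested as an interaction of state and hairpin. None of the 30 genes passed, and of all 20926 genes tested with edgeR 0 passed, which is 0%. At an unadjusted p under 0.05 there were 2 transport genes (6.67% of the list) and 2393 of all genes (11.4%). DESeq2 called 283 genes, among them Kpna4 (adjusted p = 0.00923), and limma-voom called 1 gene and no transport gene. The largest values of the list were 0.81 for Nxt1 (SE 0.31, edgeR adjusted p = 0.374) and 0.78 for Kpna4 (SE 0.19, adjusted p = 0.189).

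Nxt1, the small partner of Nxf1 in mRNA export, stood at 8.05, 13.4, 8.72 and 12.2 CPM in basal shControl and at 5.91 and 6.71 CPM in basal shNup153-2. In silenced cultures it stood at 8.96, 10.2 and 8.07 CPM with shControl and at 9.26, 9.35 and 9.58 CPM with shNup153-2. The 2 knockdown libraries lay below the controls at basal state, and the groups overlapped after silencing. Kpna4 changed with knockdown by -0.31 at basal state and by 0.50 in silenced cultures, neither past the threshold without the block.

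Other genes of nuclear transport were read from a list chosen by role, which holds further carriers, adaptors of mRNA export and Ran-binding proteins. Of its 42 genes, 41 are in both tables. With shNup153-1, 4 of 35 tested genes (11.4%) fell and none rose, against 7.05% of all genes called as lower. They were Nxt2, a relative of Nxt1 (-1.24, SE 0.24, edgeR adjusted p = 0.0132), Gle1, which activates the last step of mRNA export (-1.10, SE 0.21, adjusted p = 0.0121), Ncbp2, a subunit of the cap-binding complex (-0.86, SE 0.21, adjusted p = 0.0339), and the export adaptor Chtop (-0.82, SE 0.19, adjusted p = 0.025). Nxt2 stood at 23.3, 16.7, 24.1 and 20.9 CPM in basal shControl, at 7.42 and 10.8 CPM with shNup153-1 and at 31.9 and 35.6 CPM with shNup153-2. The hairpins thus lay on opposite sides of the controls, but the rise with shNup153-2 did not pass (0.64, SE 0.19, adjusted p = 0.0766). The difference between hairpins was 1.87 (SE 0.27, adjusted p = 0.0123), the only call of 35 between them (2.86%, against 4.48% of all genes). For Nxt2 this call was not followed through the fits that leave out a library.

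With shNup153-2 at basal state 2 of 38 genes fell (5.26%, against 3.64% of all genes called as lower), the importin relatives Ranbp6 (-0.82, SE 0.18, edgeR adjusted p = 0.0326) and Ranbp17 (-0.92, SE 0.22, adjusted p = 0.038). In silenced cultures 1 of 38 fell (2.63%, against 1.83% of all genes called as lower), Rcc2, a relative of Rcc1 (-0.53, SE 0.09, adjusted p = 0.0354). With silencing none of 39 passed in shControl, while in shNup153-2 cultures 6 rose and 2 fell, 20.5% against 21.7% of all genes. Those with the smallest p were the pore protein Ranbp2 (-1.23, SE 0.24, adjusted p = 0.0067), the mRNA export helicase Ddx39b (0.72, SE 0.14, adjusted p = 0.00739), Nxt2 (-1.12, SE 0.25, adjusted p = 0.0124) and Thoc1 of the THO complex (0.70, SE 0.16, adjusted p = 0.0138). The interaction called none of the 39.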

How the data were processed

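The authors deposited 2 tables of raw counts per gene symbol, 1 for basal and 1 for silenced cultures, with no normalization. Per the submitters' processing notes, featureCounts 2.0.1 and FastQC were used with mm10. The aligner, annotation and strand setting were not given in the sources used here. Groups follow the titles, because GEO's description field gives the control virus for every sample. Of the basal columns, 2 carry the same name and were not used. The shNup153-1 columns correlated with shControl at 0.976 over the first 16399 gene lines and at 0.1 over the 9972 beyond, so only the former enter comparisons with that hairpin.

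Genes were kept by filterByExpr (minimum count 10), scaled by TMM and analysed with edgeR 4.0.16 (R 4.3.3) by its quasi-likelihood F test. The p-values were adjusted by Benjamini-Hochberg over every gene tested, with 0.05 as the threshold. The 3 basal groups were fitted together for shNup153-1, the other comparisons without it, and both states in 1 fit of 4 groups. The SE is the absolute log2 fold change over the root of F. CPM use TMM totals over all 14 libraries. The fits were tested on simulated counts. The members and lists, including marker lists and the motif, were chosen with earlier results of these data known. Values per library are given for each member past the threshold and, where none passed, for the 2 largest changes. Alternatives were DESeq2 1.42.0, limma-voom (3.58.1), other scaling, no filter, a length trend removed, a replicate block and leaving out each library. In silenced cultures, residuals of same-numbered libraries correlated at 0.447, 0.679 and 0.754, so the numbers were taken to pair them, although the labels do not say that they share a litter.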

Additional observations from a re-analysis of the deposited data

Results flagged for a closer look

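The response of 2 genes differed between the hairpins at basal state by a test of the difference itself. Kpna1 was higher with shNup153-2 than with shNup153-1 by 1.55 on the log2 scale (SE 0.27, edgeR adjusted p = 0.0204), in 2 of 2 libraries against 2 of 2. Ipo7 was higher by 1.18 (SE 0.22, edgeR adjusted p = 0.0292), again with no overlap. Neither call held when any 1 of the 4 knockdown libraries was left out. No library stood apart from the other 3 basal shControl libraries in any of the 30 genes by Dixon's criterion, which would flag about 1 in 20 groups by chance. That criterion looks for 1 lone library. It says nothing on the split of replicates 1 and 3 from 2 and 4, seen in 20 of the 30 genes.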

How the results depend on the processing

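For the genes called in each comparison, and for Nxt1 and Kpna4 in the interaction, no value changed direction in the alternatives run. Of their 164 values, 127 stayed on their side of the threshold, 36 lost the call and 1 gained it (Kpna4 in the interaction, with DESeq2). The 164 include the replicate block for silenced against basal cultures, which is no check of those calls for the reason given below. Genes not called by edgeR gained calls too: with DESeq2, Ipo7 and Rcc1 with shNup153-1, Xpo6 with shNup153-2, Ipo5 and Xpo6 between hairpins, Kpna4 in silenced cultures, and, with silencing, Ipo8 in shControl and Kpna1 in shNup153-2. Of these, limma-voom also called Ipo7 with shNup153-1 and Kpna1 with silencing. DESeq2 called more transport genes: 5 with shNup153-1, 2 with shNup153-2, 4 between hairpins, 2 in silenced cultures, 2 with silencing in shControl, 5 with silencing in shNup153-2 and 1 in the interaction. Over all genes it called, in the same order, 3146, 3624, 2114, 1845, 3690, 5974 and 283. A fit of only the groups compared called 1203 genes with shNup153-1. For the interaction, leaving out the filter called 3 genes, limma-voom 1 and the replicate block 2. With the length trend removed, the median of the list changed sign between hairpins (-0.0301, against 0.17 otherwise) and was 0.30 with silencing in shNup153-2 (0.14) and 0.18 in the interaction (0.10).

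With the replicate number as a block, 7 transport genes and 4161 genes were called in silenced cultures, where the numbers were taken to pair the libraries. At basal state no pairing by number was seen. Same-numbered residuals of shControl correlated at -0.647 and -0.711 with shNup153-1 and at 0.263 and -0.016 with shNup153-2. With 2 libraries per hairpin the residuals mirror each other, so the value of 1 library fixes that of the other. Replicate 1 of shNup153-1 went with shControl replicates 2 and 4 (0.711 and 0.456). Replicate 2 went with shControl replicates 1 and 3 (0.647 and 0.584), so the split of the controls was seen in the shNup153-1 libraries too. At basal state the block called 0 transport genes and 0 genes with shNup153-1 (Kpna1 at -2.19, edgeR adjusted p = 0.165) and between hairpins. With silencing it called 0 transport genes and 1066 genes in shControl and 7 transport genes and 5895 of 20926 genes in shNup153-2. Replicate numbers were fitted within each state, so these last 2 fits compare the states at the fitted level of replicate 1. They are therefore no check of the difference between silenced and basal cultures. With shNup153-2 at basal state the block kept the Xpot call.

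Leaving out 1 library at a time gave 1 to 3 transport genes and 356 to 2050 genes with shNup153-1, 0 to 1 and 15 to 2211 with shNup153-2, and 0 and 0 to 500 between hairpins. In silenced cultures it gave 0 to 1 and 4 to 659, with silencing in shControl 0 to 3 and 1069 to 3426, in shNup153-2 1 to 4 and 841 to 4003, and in the interaction 0 and 0 to 12. The lone library left in a group of 2 was assumed to vary like the other groups. The cause of these changes was not tested, since having fewer samples and losing the library left out go together. With 2 libraries for each basal hairpin, p-values measure the spread between few litters.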
